A study of Homo sapiens with 32 samples.

Results

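The replication-dependent histone genes were taken as the protein-coding genes whose symbols begin with H2AC, H2BC, H3C or H4C, or equal H1-1 to H1-5. They numbered 69 of 20015 protein-coding genes in the annotation: 5 linker H1 genes, 17 H2A, 19 H2B, 13 H3 and 15 H4 genes. Copies that shared at least 50% of their 31-base sequence windows were merged, which left 63 entries, 6 of them holding 12 genes between them. The readout was ac4C-seq of Hep3B cells, a human hepatocellular carcinoma line, in which NaCNBH3 reduces N4-acetylcytidine so that reverse transcription reads part of it as thymidine, while a mock fraction of the same RNA gives the background. The 32 libraries were made from total RNA, with ribosomal RNA partly removed and without selection for poly(A), so that histone mRNAs were in them.

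There were 8 genotypes, each with a NaCNBH3 and a mock library of 2 replicates, and cells of every genotype received 100 nM dTAGV1 for 24 h. Apart from Wildtype, the untransduced parental line, all cells had endogenous NAT10 fused to the FKBP12 degron that dTAGV1 sends to degradation. To these cells the NAT10(-) genotype added only a control vector. The mutant genotypes added NAT10 with a substitution in its RNA helicase domain (K290A or E389L) or in its acetyltransferase (GNAT) domain (H537A or G641E), and NAT10-WT added it unmutated. FKBP cells, untransduced, had the degron and no added copy. The vectors were lentiviral, with NAT10 under the EF1A promoter, and transduced cells were selected with blasticidin, whereas FKBP and Wildtype cells were not transduced. The labels give the replicate number as a batch that holds every genotype once. The contrasts below share libraries, NAT10-WT in most of them, and are not independent.

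The files list each position with at least 30 reads. They held 400119 to 3797803 positions per library with a median depth of 49 to 169 reads. K290A replicate 1 stood apart. It listed 3797803 positions in its NaCNBH3 library and 3735165 in its mock library, against 463897 to 712023 in the NAT10-WT libraries. K290A replicate 2 listed 2043016 and 1050459, which FKBP replicate 2 matched or passed with 2047586 and 1864179, and the libraries labelled E389L listed 1263937 and 1633904 in replicate 1. NAT10 itself, over 3973 exonic positions, had 1441 to 3126 listed in K290A, 615 to 2758 in H537A, 2765 to 3028 in G641E and 518 to 1082 in NAT10-WT, but none in NAT10(-), FKBP, Wildtype or the libraries labelled E389L. The added copy was thus not seen in the libraries labelled E389L at this minimum, and every value below for them carries that limit. Of the hepatocyte-lineage markers, 13 of 13 were listed in at least 1 library but only 7 in all 32, with FGG in 1 and FGB in 12. Of 8 markers of other cells, VIM was listed in 30 libraries and KRT19 in 24. PTPRC, HBB, HBA1, COL1A1, COL1A2 and PECAM1 were listed in none.

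Replication-dependent histones package newly copied DNA, and their mRNAs are made mainly in S phase, so their amount is often read as a sign of cycling cells. These genes lack introns, and their mRNAs end in a stem-loop in place of a poly(A) tail. The stem-loop is bound by SLBP, and the cut just downstream of it is guided by U7 snRNP. H2A, H2B, H3 and H4 form the nucleosome core, and H1 binds the linker DNA between cores.

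The stem-loop is shown because it marks the end of the RNA that was read. A 16-base stem-loop was found in 68 of the 69 genes, the exception being H2BC12L. In the forms below, the capitals are the 4-base loop, the letters are DNA letters of the transcript strand, 5′ to 3′, and each form is named by its members.
H1, H2A, H2B and H3 (40 genes, among them H1-4, H2AC18, H2BC21 and H3C3): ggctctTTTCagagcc
H4 (10 genes, among them H4C1, H4C3 and H4C5): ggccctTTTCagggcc
H1, H2A, H2B and H3 (8 genes, among them H2BC5 and H2BC12): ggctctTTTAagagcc
H4 (4 genes, H4C9, H4C12, H4C14 and H4C15): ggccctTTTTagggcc
H2AC11 alone: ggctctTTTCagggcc
No H4 gene shared a form with another family, while the most frequent form served H1, H2A, H2B and H3 alike. The remaining 5 genes with a form of their own were H2AC15, H2AC20, H2BC10, H3C6 and H4C13.

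Read depth ended at the stem-loop. Over 38 members with enough depth, relative to the median of the 100 bases before the stem-loop, the median depth was 1.05 at 81 bases before its last base, 0.93 at 41 bases before it, 0.55 at its last base and 0 from 4 bases past it. The last listed position lay 1 to 4 bases past the stem-loop, with a median of 3. In none of the 38 members did any library list a position from 21 to 120 bases past it. H2BC21, an H2B gene on chromosome 1 (149884459 to 149886682, minus strand, hg38), has an annotated transcript that runs 1729 bases beyond its stem-loop, and it too had nothing listed from 21 to 120 bases past it in any of the 32 libraries. At a minimum of 30 reads, RNA that ran past the stem-loop was therefore not detectable in that window.

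**Figure D1:**
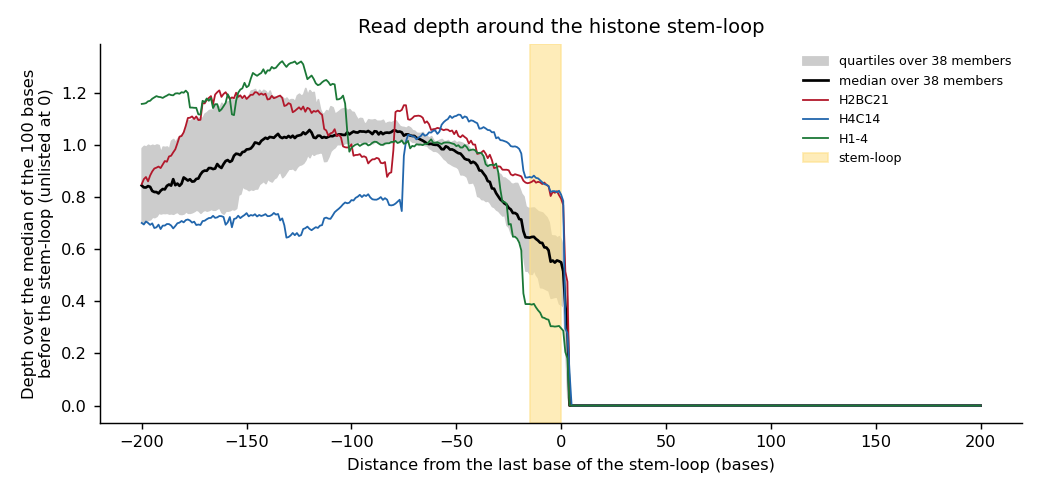
Read depth around the histone stem-loop, with distance from its last base on the x axis (bases) and depth over the median of the 100 bases before the stem-loop on the y axis (unlisted positions drawn at 0). The black line is the median and the grey band the quartiles over 38 members, coloured lines are H2BC21, H4C14 and H1-4, and the shaded strip is the stem-loop. The median is 0.55 at the last base of the stem-loop and 0 from 4 bases past it.

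Sequence before the start sites set the families apart as well. RefSeq promoters (GRCh38.p14, 300 bases, 250 before and 50 after the start) matched 63 of the 69 genes by symbol. The octamer ATTTGCAT, the known POU2F1 (OCT1) site of H2B promoters, was found on either strand in 14 of 18 H2B promoters and 11 of 16 H2A promoters, in 1 of 11 H3 promoters and in none of 13 H4 and 5 H1 promoters, against 1.8% of 27305 promoters in the table. Many H2A and H2B genes lie head to head, so that a pair can share 1 stretch of promoter. CCAAT (either strand) was in every one of the 5 H1, 16 H2A, 18 H2B and 11 H3 promoters but in 3 of 13 H4 promoters, against 35.7% of all promoters. TATAAA (either strand) was in 42 of 63 promoters of histone genes, against 12% of all. A match is a description of these letters and not a site in use.

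Listing of the genes was uneven. Of the 69 genes, 42 had a listed exonic position in every library, 13 in some libraries and 14 in no library. A gene without a listed position has no level here and may still be expressed. Per library, 47.4% to 63.7% of the exonic positions of the 69 genes were listed (median 57.3%). By family the medians were 59.9% for H1, 62.4% for H2A, 46.4% for H2B, 53.0% for H3 and 70.3% for H4. The H2B positions include the annotated 1729 bases of H2BC21 past its stem-loop, where the last listed position was at 3 bases. That stretch lowers the H2B share. H4 had the widest range, 54.3% to 79.3%, and H1 the narrowest, 51.7% to 60.2%.

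Depth was compared over positions listed in all 32 libraries, so that the same bases counted in each. With at least 50 such positions required, 34 entries of 39 histone genes were kept among 249 genes and entries (3 H1, 9 H2A, 10 H2B, 5 H3 and 7 H4), with 215 other genes beside them. Of the 34 entries, 27 lie on chromosome 6 and 7 on chromosome 1, with H2BC12L/H2BC12 counted at H2BC12 since H2BC12L lies on chromosome 21. As an entry had to reach 30 reads in every library, a gene that fell out of reach in any genotype is not among them.

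The linker histones H1-4 (chromosome 6, 26156329 to 26157115, plus strand) and H1-2 had median depths over the libraries of 287 and 179 reads, and H1-5 (27866792 to 27867588, minus strand) of 120 reads. Among core histones the deepest H2A entry was H2AC18/H2AC19 with 383 reads, followed by H2AC11 with 162 and H2AC8 with 161. For H2B they were H2BC12L/H2BC12 with 381, H2BC21 with 296 and H2BC5 with 241. For H3, H3C14/H3C15 had 584 reads, H3C2 had 293 and H3C13 had 175, and for H4, H4C14/H4C15 had 646, H4C11/H4C12 had 319 and H4C5 had 251. The deepest entries of H2A, H3 and H4 were thus pairs of near-identical copies on chromosome 1, at 149832657 to 149861159 for the H4 pair. Where a window was shared by both copies, their depths differed by a median of 3.51% of the deeper copy for H4C14/H4C15, 2.58% for H3C14/H3C15 and 5.46% for H2AC18/H2AC19, so a copy of such a pair cannot be read on its own. The shallowest of the 34 entries was H2AC4, with 76.3 reads. These are depths per base and can be set against each other, but reads of H2BC12L and H2BC12, which differed by 49.4%, and of H4C11 and H4C12, by 27.9%, may be split unevenly between copies.

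ACTB, cytoplasmic beta-actin, served as the measure of depth within a library. The mean depth of the 34 entries over that of ACTB, with the 2 libraries of a replicate averaged, was 0.672 and 0.615 in NAT10(-) replicates 1 and 2, 0.130 and 0.302 in K290A, 0.416 and 0.641 in those labelled E389L, 0.504 and 0.532 in H537A and 0.387 and 0.420 in G641E, against 0.505 and 0.619 in NAT10-WT. Both K290A replicates lay below every replicate of those 5 other genotypes. In cells without a transduced copy, FKBP had 0.316 and 0.296, against 0.356 and 0.418 in Wildtype. ACTB itself had a mean depth of 1886 and 772 reads in K290A against 466 and 251 in NAT10-WT, so the ratio was also taken to the median of the 215 other genes. It was then 0.762 and 1.03 in K290A and 2.68 and 1.88 in NAT10(-), against 1.83 and 1.90 in NAT10-WT, and 1.5 and 1.2 in FKBP against 1.63 and 1.95 in Wildtype. K290A was the lowest genotype on either scale, although its replicate 2 lay just above FKBP replicate 2 relative to ACTB. In bulk RNA, fewer cells with histone mRNA and less of it per cell cannot be told apart.

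**Figure D2:**
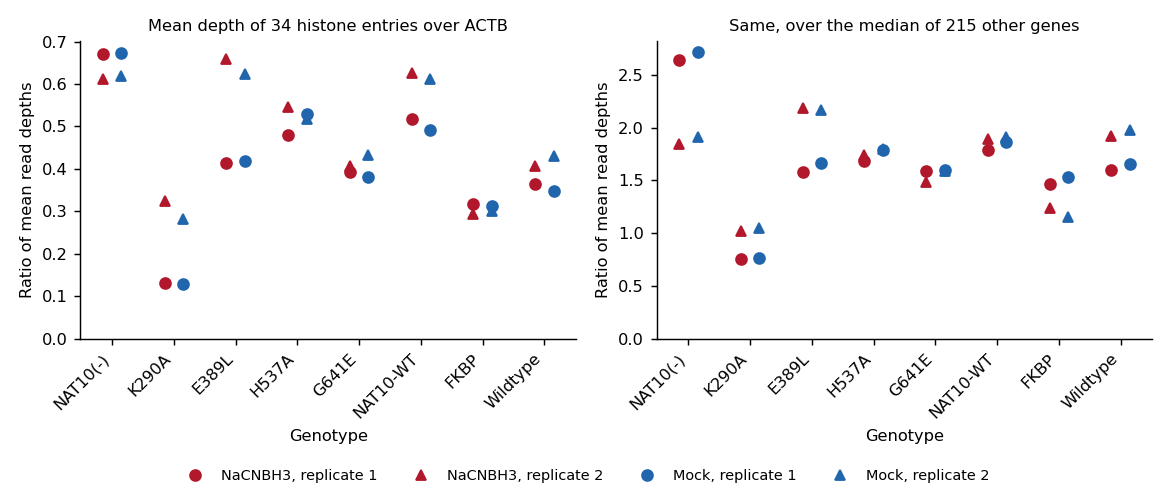
Mean read depth of the 34 histone entries in each of 32 libraries, by genotype (x axis), as a ratio to ACTB (left y axis) and to the median of 215 other genes (right y axis). Red points are NaCNBH3 and blue points mock libraries, circles replicate 1 and triangles replicate 2. K290A is the lowest genotype in both panels, at 0.130 and 0.302 of ACTB by replicate, and the 2 libraries of a replicate lie close together.

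Before scaling, the histone entries had a mean depth of 245 and 233 reads in K290A replicates 1 and 2 against 235 and 155 in NAT10-WT, so the raw depth was not lower in K290A and the difference arises relative to other RNAs in the library. By genotype the summed depth over ACTB differed from NAT10-WT by -1.49 on the log2 scale in K290A (0.355-fold), by -0.47 in G641E, -0.11 in H537A, -0.11 in the libraries labelled E389L and +0.20 in NAT10(-). The pooled SD between replicates was 0.36, which only the K290A difference from NAT10-WT passed by a wide margin. K290A itself, with an SD of 0.86, and the libraries labelled E389L, with 0.44, widened it. In the other genotypes the SD was 0.055 (H537A) to 0.21 (NAT10-WT), so the pooled SD is a wide measure for contrasts among them. Relative to the median of other genes the K290A difference was -1.07. Within batches, the log2 difference of the mean relative to ACTB was -1.96 in replicate 1 and -1.03 in replicate 2 for K290A, -0.38 and -0.56 for G641E, but 0.41 and -0.0083 for NAT10(-), -0.28 and 0.051 for the libraries labelled E389L and -0.0024 and -0.22 for H537A. The direction was thus held in both batches for K290A and G641E. NAT10-WT exceeded Wildtype by 0.54 relative to ACTB, but by 0.06 relative to the median of other genes, as the other genes shifted relative to ACTB by a similar amount. FKBP differed from Wildtype by -0.33 and -0.41 on these scales. Both held in each batch relative to ACTB, with 0.51 and 0.57 for NAT10-WT and -0.17 and -0.50 for FKBP. The helicase mutants differed from the GNAT mutants by -0.51, which was -0.92 in replicate 1 and -0.10 in replicate 2.

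Gene by gene, limma was fitted to log2 depth over ACTB of all 249 genes and entries, with the libraries of a replicate averaged (16 values). K290A against NAT10-WT called 32 of the 34 histone entries lower and 0 higher, where 32.5% of all genes were called, every one of them lower. Scaling each library to the median of all genes, which moved the median of all genes in this contrast from -0.59 to -0.03 on the log2 scale, called 27 histone entries lower, and over all genes 34 higher and 53 lower. Of the 215 other genes 49 were called lower, which is 22.8%. The median log2 difference was -1.52 over the histone entries and -0.47 over the other genes, and each of the 34 entries lay below the median of the others. The 34 entries were below 0 in every alternative setting that measured them, the scaling to the median of other genes among them, which called 30. With unlisted positions set to 0 and 3625 genes tested, 6 of the 34 were still called. Leaving out K290A replicate 1 gave 18 calls, and so did leaving out NAT10-WT replicate 2, in each case with all 18 among the 32. All 34 were below 0 within each batch, with a median of -2.02 in replicate 1 and -1.11 in replicate 2. Both K290A replicates also listed more positions than the NAT10-WT libraries, and the part of that in these differences was not tested.

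Among the linker histones, 2 of 3 were called lower. H1-5 stood at 0.0384 and 0.033 of ACTB in the NaCNBH3 and mock libraries of K290A replicate 1 and at 0.14 and 0.0885 in replicate 2, against 0.34, 0.266, 0.414 and 0.422 in the NAT10-WT libraries in the same order. The ranges did not overlap, and the log2 difference was -2.49 ± 0.40 (SE, limma, adjusted p = 0.00044). H1-2 differed by -1.08. H1-4 was not called, at 0.29, 0.273, 0.72 and 0.545 of ACTB in K290A against 0.649, 0.55, 0.806 and 0.734 in NAT10-WT. Its log2 difference of -0.69 ± 0.33 (SE, limma, adjusted p = 0.116) was the smallest among the 34 entries, and K290A replicate 2 overlapped the NAT10-WT range.

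All 9 H2A entries fell, with a median of -1.67. H2AC7, on chromosome 6, fell by 2.56 on the log2 scale (limma, adjusted p = 0.00044), to 0.0372, 0.0407, 0.0936 and 0.123 of ACTB in K290A against 0.293, 0.271, 0.506 and 0.517 in NAT10-WT. H2AC4 fell by 2.22 and H2AC12 by 1.94, while the copy pair on chromosome 1, H2AC18/H2AC19, fell by 1.14 and H2AC20 by 1.11, the smallest fall of the family. All 10 H2B entries fell as well, by a median of 1.42. H2BC21 stood at 0.158, 0.153, 0.322 and 0.339 of ACTB in K290A against 0.812, 0.792, 0.866 and 0.869 in NAT10-WT, a log2 difference of -1.88 ± 0.31 (SE, limma, adjusted p = 0.00044). The smallest H2B difference was that of H2BC5, at -0.97.

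H3 had the lowest family median, -2.48, with 5 of 5 entries called. H3C3 (chromosome 6, 26045384 to 26045869, plus strand) had the largest difference of the 34 entries. It stood at 0.0495 and 0.0459 of ACTB in the NaCNBH3 and mock libraries of K290A replicate 1 and at 0.139 and 0.129 in replicate 2, against 0.518, 0.494, 0.613 and 0.611 in NAT10-WT. Even the highest K290A value was thus well under the lowest NAT10-WT value, and the log2 difference was -2.80 ± 0.37 (SE, limma, adjusted p = 0.000116). H3C13 differed by -2.64 and H3C12 by -2.48, whereas the deepest H3 entries moved less, H3C14/H3C15 by -1.34 and H3C2 by -1.16.

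Of the H4 entries 6 of 7 were called lower, and the family median was -1.48. H4C14/H4C15, the deepest entry, stood at 0.326 and 0.337 of ACTB in K290A replicate 1 and at 0.974 and 0.86 in replicate 2, against 2.08, 2.02, 2.2 and 2.14 in NAT10-WT, a log2 difference of -1.94 ± 0.37 (SE, limma, adjusted p = 0.000985). H4C1 and H4C9 fell by 2.06 and 2.05. H4C3 was not called, with -0.90 ± 0.35 (SE, limma, adjusted p = 0.0569), but was with the batch as a block (limma, adjusted p = 0.0402). In all 34 entries K290A replicate 1 was lower than K290A replicate 2.

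**Figure D3:**
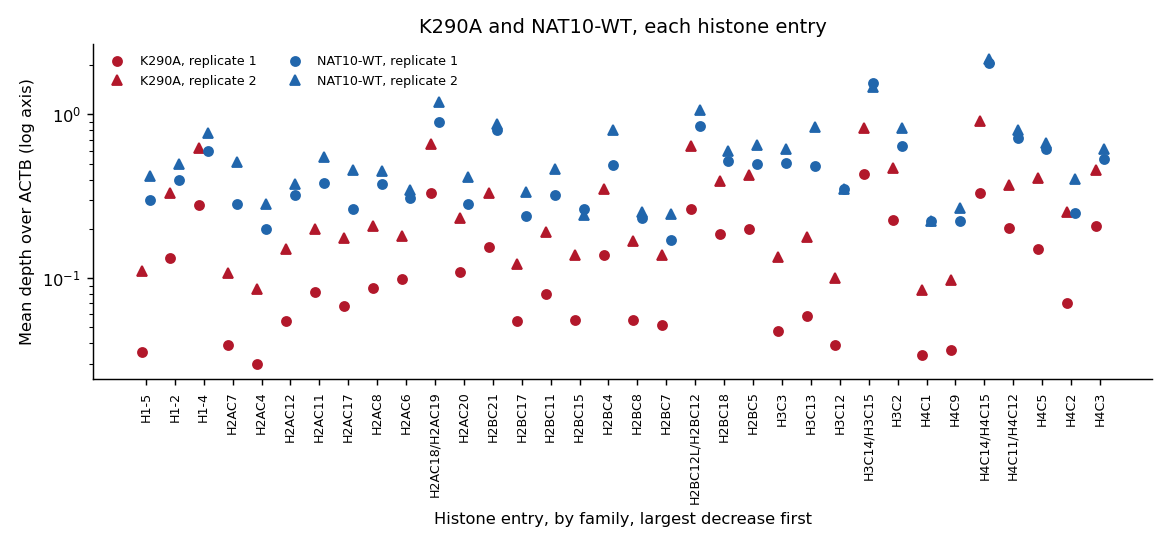
Depth over ACTB (y axis, log scale) of each of the 34 histone entries (x axis, by family), in K290A (red) and NAT10-WT (blue). Circles are replicate 1 and triangles replicate 2, each the mean of its NaCNBH3 and mock libraries. Both K290A points lie below both NAT10-WT points except for H1-4 and H4C2, and K290A replicate 1 lies below K290A replicate 2 throughout.

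The size of the K290A difference was set beside chromosome, base composition and depth as a description. The median was -1.34 over the 7 entries on chromosome 1 and -1.53 over the 27 on chromosome 6. Across the 34 entries, which share libraries and are not independent, Pearson's r with GC content (38% to 65.3%) was 0.03 and Spearman's rho -0.25, and with log2 median depth r was 0.36 and rho 0.40, deeper entries falling less. With the FKBP over Wildtype differences, which use other libraries, r was 0.53 and rho 0.48. Over the 215 other genes the K290A difference had r of -0.33 and rho of -0.35 with GC content.

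Other gene groups were read over the positions listed in all 8 libraries of K290A and NAT10-WT, where no test was run. Copies were not merged here, so histone genes that share reads were each counted and are not independent. Over these positions 42 single histone genes had a median log2 difference of -1.46, and in 40 of them (95.2%) both K290A replicates lay below both NAT10-WT replicates. The same held for 51.7% of all 443 genes measured there and for 47.1% of the 401 others, whose median was -0.53 and whose lowest value, -3.23, was below the lowest histone value of -2.83. The replication-independent histones H3-3A and H3-3B, which encode the variant H3.3, differed by -0.06 and -0.50, and H2AZ1, encoding H2A.Z, by -0.74. H3-3A stood at 0.115 and 0.141 of ACTB in K290A replicates against 0.120 and 0.147 in NAT10-WT, close to equal, while H3-3B and H2AZ1 were lower in both K290A replicates than in both NAT10-WT replicates. For H3-3B the margin was slight, at 0.1415 in K290A replicate 2 against 0.1416 in NAT10-WT replicate 1. Of 12 replication-independent histone genes 10 were listed in some library.

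Histone chaperones were spread: ANP32B differed by -1.37, SSRP1, a subunit of FACT, by -0.79 and SET by -0.75, while NPM1, nucleophosmin, differed by +0.88. The K290A and NAT10-WT replicates overlapped for SSRP1 and SET. Of the 27 genes of S phase and proliferation, 23 were listed in some library but none in all, and only the DNA methyltransferase DNMT1 could be read in this contrast, at -0.84. It stood at 0.0374 and 0.108 of ACTB in K290A replicates against 0.0840 and 0.155 in NAT10-WT, which overlapped. Of the histone mRNA processing factors, 15 of 21 matched genes were listed in some library. SNRPB, a core Sm protein that U7 snRNP also holds, was the one tested by limma and was not called (-0.40, adjusted p = 0.446), and SNRPE and SNRPF differed by +0.06 and -0.80. Of the hepatocyte-lineage markers, limma called 4 of 6 lower in K290A. They were APOA1 (an apolipoprotein) at -2.36, AHSG (fetuin A) at -2.19, SERPINA1 at -1.33 and APOA2 at -1.13. ALB, albumin, was at +0.22 and TF, transferrin, at -0.76, neither called. Of the markers of other cells VIM alone could be read, at +0.51. The part of these shifts in the histone result was not tested.

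**Figure D4:**
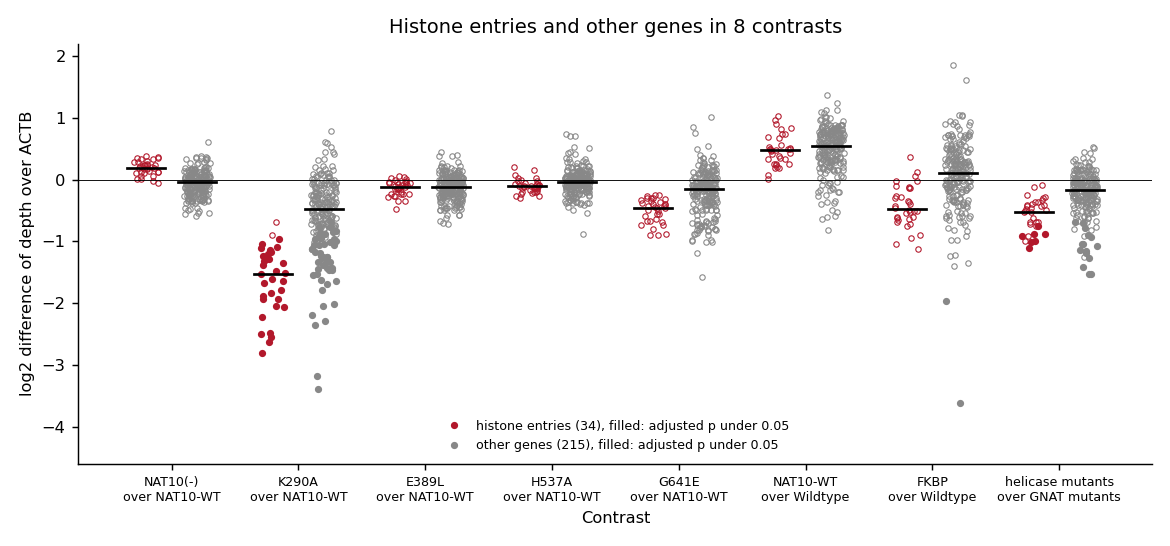
Log2 difference of read depth over ACTB (y axis) in 8 contrasts (x axis), with 1 point per gene, red for the 34 histone entries and grey for 215 other genes. Filled points passed an adjusted p of 0.05, and black bars are medians. In K290A over NAT10-WT the histone median is -1.52 and that of other genes -0.47, and in 6 other contrasts no histone point is filled.

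In the other contrasts with NAT10-WT no histone entry was called relative to ACTB, although G641E had 18 called lower relative to GAPDH and 4 when K290A replicate 1 was kept out of the estimate of spread. For NAT10(-), where 0.0% of all 249 genes were called, 32 of the 34 entries were above 0 with a median of +0.20 against -0.04 for other genes. No entry had an unadjusted p under 0.05. The direction differed between batches, with 34 of 34 entries above 0 in replicate 1 and 21 of 34 below 0 in replicate 2. The range ran from -0.05 (H3C13) to +0.39 (H3C12, at 0.522, 0.5, 0.406 and 0.409 of ACTB in NAT10(-) against 0.388, 0.313, 0.349 and 0.35 in NAT10-WT). For G641E (0.0% of all called) all 34 entries were below the median of other genes, with a median of -0.45 against -0.15. The lowest entry in G641E was H2AC7 at -0.90 and the highest H2AC18/H2AC19 at -0.24, and 4 entries had an unadjusted p under 0.05. For H537A (0.0% called) the median was -0.11, from -0.29 for H2AC7 to +0.20 for H4C1, and for the libraries labelled E389L (0.0% called) it was -0.12, from -0.47 for H2AC7 to +0.06 for H2BC8. The standard error of a single entry was 0.29 to 0.46, and differences of more than that size, such as that of H2AC7 in G641E (limma, adjusted p = 0.387), were not called with 2 replicates.

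In the 2 contrasts with Wildtype no histone entry was called either, where 0.0% of all genes were called for NAT10-WT and 0.803% for FKBP. In NAT10-WT the entries had a median of +0.48 and the other genes of +0.55, from +0.01 for H4C1 to +1.03 for H3C13, and 6 had an unadjusted p under 0.05. With the batch as a block 2 were called higher, H2AC18/H2AC19 at +0.90 (limma, adjusted p = 0.0455) and H3C13 (limma, adjusted p = 0.0477). In FKBP the medians were -0.47 and +0.11, and 32 of 34 entries lay below the median of other genes. H1-5 was lowest at -1.13 ± 0.40 (SE, limma, adjusted p = 0.161), with 0.16, 0.149, 0.157 and 0.151 of ACTB in FKBP against 0.344, 0.265, 0.382 and 0.371 in Wildtype, which did not overlap. H2AC18/H2AC19 was highest, at +0.37, and 4 entries had an unadjusted p under 0.05. When scaled to the median of other genes instead of ACTB, 7 entries were called lower in FKBP.

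Helicase mutants against GNAT mutants called 7 of 34 entries lower and 0 higher, where 8.84% of all genes and 15 of 215 others were called, all lower. The entries were H3C3 at -1.10, H1-5 at -1.01, H4C1 at -0.996, H4C9 at -0.91, H2AC4 at -0.88, H2AC12 at -0.87 and H2BC21 at -0.75, and H1-4 was nearest to 0 at -0.09. With the batch as a block 13 were called, the 7 among them. Within batches 34 of 34 entries were below 0 in replicate 1 (median -0.92) and 23 of 34 in replicate 2 (median -0.16). H3C3 stood at 0.0495, 0.0459, 0.139 and 0.129 of ACTB in K290A and at 0.397, 0.424, 0.556 and 0.587 in the libraries labelled E389L, against 0.499, 0.575, 0.555 and 0.5 in H537A and 0.341, 0.286, 0.344 and 0.37 in G641E. For H3C3 the libraries labelled E389L lay within the range of the GNAT mutants, apart from 1 above it, and all 4 K290A libraries lay below it. The mean over ACTB of all 34 entries was 0.198 in K290A and 0.517 in the libraries labelled E389L. It was 0.518 in H537A and 0.403 in G641E, so of the helicase mutants K290A alone lay below both GNAT mutants. Without K290A replicate 1 the count was 2, and without K290A replicate 2 it was 32. It was 0 without E389L replicate 1, without either H537A replicate and without G641E replicate 2, and 1 without G641E replicate 1. The contrast called 5 of 6 hepatocyte-lineage markers lower too.

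Across the 16 replicates, histone depth was lower where more positions were listed, a relation looked for after the data were seen. With log2 of the number of listed positions, log2 histone depth over ACTB had Pearson's r of -0.80 (permutation p = 0.00055) and Spearman's rho of -0.73 (permutation p = 0.00193). Over the median of other genes r was -0.80 (permutation p = 0.0005) and rho -0.60 (permutation p = 0.015). Adjusted over the 2 relations, p for r was 0.00055 for both. Without the 2 replicates farthest from the median in listed positions r was -0.51 (permutation p = 0.0661, n = 14) and -0.54 (permutation p = 0.0439, n = 14), so that the relation to ACTB rested in part on them. Within replicate 1 r was -0.86 on both scales, and within replicate 2 it was -0.71 and -0.74. The 16 values were pairs of replicates of the same genotypes and not independent, so the permutation p-values may be too small. The quantities were also linked, as the number of listed positions depends on read depth. ACTB depth and the median depth of other genes, the divisors, were highest in K290A replicate 1 (1886 and 322 reads), which listed most positions. The part of this link in the relation was not tested.

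C>T after NaCNBH3 was then read in the histone mRNAs. At single positions, Fisher's exact test (two-sided, run in each replicate, Benjamini-Hochberg over all positions tested) called 0 histone cytosines higher or lower in both replicates of any genotype. By the same rule the share of C>T positions in all RNAs called higher was 3.68% in NAT10(-), 3.74% in K290A, 3.7% in the libraries labelled E389L, 4.4% in H537A, 3.7% in G641E, 4.7% in FKBP, 10.9% in NAT10-WT and 8.74% in Wildtype. Only 8 to 14 histone cytosines per genotype reached the 5 mismatch reads and 1% share that the test required. Copies that share reads were counted singly here, and these cytosines lay in 6 to 11 distinct sequence windows. None of them had an unadjusted p under 0.05 in both replicates. Some histone cytosines read as T at a high share, with a median of 10.95% in H3C14, 11.59% in H3C15 and 75.32% in H2AC18. The median was 76.6% in H2AC19, 62.66% in H2BC8, 100% and 30.73% at 2 positions of H3C2, and 93.65% in H4C11. Where T is that frequent, the absence of a call says little about acetylation. How many of the tested cytosines were of this kind was not counted. A site with a small C>T share was not detectable by this rule at these depths.

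Pooled over the 3717 histone cytosines with 30 reads in every library (424636 to 1820872 reads a library), T made up 0.104% ± 0.0189 of C and T reads in NaCNBH3 libraries and 0.0499% ± 0.00491 in mock libraries (SD, n = 16 each). The mean difference was 0.0543 percentage points, and NaCNBH3 was higher in 16 of 16 pairs, from 0.0354 to 0.0793 points (exact two-sided sign-flip permutation p = 3.05e-05, the smallest that 16 pairs can give). ACTB, with 540 cytosines, had 0.0933% and 0.0425%, a difference of 0.0508 points and also 16 of 16 pairs. The histone and ACTB differences were of like size, and the difference between them was not tested. Other changes were smaller: at histone bases A>G differed by 0.0078 points (15 of 16 pairs), G>A by 0.0015 and C>A by 0.00059, with exact permutation p-values adjusted over 7 quantities of 0.000142, 0.0126 and 0.36.

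**Figure D5:**
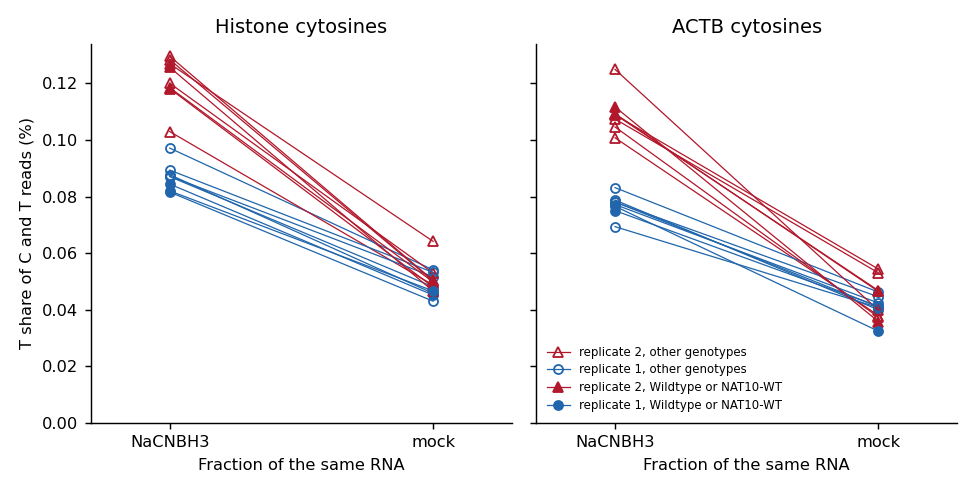
Pooled C>T share (y axis, percent of C and T reads) in NaCNBH3 and mock libraries (x axis) of histone cytosines (left) and ACTB cytosines (right). Points are libraries, lines join the fractions of 1 RNA, triangles are replicate 2 and circles replicate 1, and filled points are Wildtype or NAT10-WT. Every NaCNBH3 library lies above its mock library. The difference is larger in replicate 2 than in replicate 1 in 8 of 8 genotypes.

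The C>T difference was spread over the families, at 0.0588 points in H1, 0.0572 in H2A, 0.0546 in H2B, 0.0545 in H3 and 0.0484 in H4. It was 0.0482 in 5' untranslated sequence, 0.0553 in coding sequence and 0.0519 in 3' untranslated sequence. The middle cytosine of CCG, the triplet in which NAT10 acetylates rRNA and tRNA, differed by 0.0416 points over 301 cytosines, and the other cytosines by 0.0554. The genotypes with working NAT10, NAT10-WT and Wildtype, had 0.0556 ± 0.0216 points (SD, n = 4) and the 6 others 0.0538 ± 0.0169 (SD, n = 12), a difference of 0.00179 points (exact two-sided permutation p = 0.862). Within replicate 1 that difference was -0.00173 (exact permutation p = 0.536) and within replicate 2 it was 0.00531 (exact permutation p = 0.5). The test of 4 against 12 took the replicates of a genotype as independent and did not separate the batches. The gap between batches also widens the SDs given. Acetylation of a few histone cytosines at a low share would not be seen in a pooled value.

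Of single histone cytosines, 8 had a mean share over 1% in NaCNBH3 libraries and 5 in mock libraries. In 4 the NaCNBH3 mean was higher by more than 0.5 points, in none by more than 1 point, and in 1 it was lower by more than 0.5 points. The 4, chosen after their values were seen, were a pair in the coding sequence of H2AC11 (chromosome 6, 27133305 and 27133278, plus strand) at 0.719 and 0.694 points, 1 in H3C12 (27890417, minus strand) at 0.666 and 1 in H2BC12 (27146589, minus strand) at 0.601. NaCNBH3 was higher in 10 of 16 pairs at both H2AC11 positions and in H2BC12, and in 3 of 16 pairs in H3C12. The median over all 3717 was 0.0931% in NaCNBH3 and 0.0357% in mock libraries.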

How the data were processed

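Per the labels and the study's methods, the authors trimmed adapters, removed duplicates by molecular identifier, aligned to the genome and deposited raw base counts per position and strand for positions with at least 30 reads. Depth levelled off near 20029 to 20049 reads, far above any histone depth. Tools credited in the submitters' notes are STAR 2.7.9a, UMI-tools 1.1.5, cutadapt 4.2 and SAMtools 1.6, with build GRCh38. How reads that match several copies were handled is not given in the sources used here.

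Exons were those of canonical transcripts in GENCODE release 44. Groups came from the labels. Depth per gene was the mean over positions listed in all 32 libraries (at least 50 required), divided by ACTB, and log2 values were fitted with limma 3.58.1 (R 4.3.3) with 1 coefficient per genotype and Benjamini-Hochberg adjustment. The labels give the replicate number as a batch, so a fit with it as a block was run. Over 28 pairs of genotypes the correlation of replicate differences ran from -0.55 to 0.63 (median 0.16), above 0.1 in 17. Depths sum overlapping reads, so edgeR 4.0.16 was an alternative only. Pooled C>T used scipy 1.17.1, with 22 of 15404 positions over 10% mismatch left out. The limma and Fisher steps were tested on simulated data. Named were the 3 deepest entries per family, up to 10 called entries per contrast, the extremes of each contrast and tested members of the gene lists. The members and lists were chosen with earlier results of these data known. Of the C>T cytosines, those called in any genotype would have been named, and there were none.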

Additional observations from a re-analysis of the deposited data

Results flagged for a closer look

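The C>T difference between NaCNBH3 and mock libraries, pooled over 3717 histone cytosines, was larger in replicate 2 than in replicate 1. It was 0.0700 percentage points in replicate 2 (0.0543 to 0.0793 over genotypes) and 0.0386 points in replicate 1 (0.0354 to 0.0431), a difference of 0.0314 ± 0.0089 points (SD, n = 8 genotypes). It was larger in replicate 2 in 8 of 8 genotypes (exact two-sided sign-flip permutation p = 0.0078, the smallest that 8 genotypes can give). ACTB showed the same order, with 0.0657 and 0.0360 points and a difference of 0.0297 in 8 of 8 genotypes. The replicate number is a batch label, so replicate and batch cannot be told apart.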

How the results depend on the processing

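Counts of histone entries called moved most in the contrast of helicase with GNAT mutants (7 as reported), with 12 under scaling to the median of all genes or of other genes, 1 under edgeR or with NaCNBH3 libraries alone and 0 with unlisted positions set to 0, and with 0 to 32 over single replicates left out. K290A (32) gave 9 of 48 entries with unlisted positions at 0, where 3625 genes were tested and 6 of the 34 entries were called, and 18 to 34 with a replicate left out. FKBP over Wildtype (0) gave 5 scaled to the median of all genes, 7 to that of other genes, 4 to GAPDH and 3 of 48 with unlisted positions at 0 (1 higher and 2 lower, none of them among the 34). With GAPDH, G641E gave 18 and NAT10-WT over Wildtype gave 9. When K290A replicate 1 was kept out of the estimate of spread, G641E gave 4, NAT10-WT over Wildtype 11 and FKBP over Wildtype 7. NAT10(-), H537A and the libraries labelled E389L gave 0 in all 17 alternatives each. The GAPDH, other-gene and spread settings were chosen after seeing the data.

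With the replicate number as a block, helicase over GNAT mutants gave 13 calls, NAT10-WT over Wildtype 2 and K290A 33, and it changed no other call of an entry.

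The summed histone depth kept within 1 pooled SD (0.36, widened by K290A itself) of its value in 78 of 84 alternatives. The exceptions were K290A, at -0.94 and -1.07 under the 2 median scalings and -2.10 to -0.89 with a replicate left out, and NAT10-WT over Wildtype, at 0.07 and 0.06 under the scalings.

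Some single entries that were not called changed sign. H4C1 in NAT10-WT over Wildtype was -0.46 under both median scalings, -0.0068 under edgeR, -0.094 with unlisted positions at 0, -0.043 with NaCNBH3 libraries alone and -0.036 to 0.051 with a replicate left out. H1-4 in helicase over GNAT mutants was 0.092 and 0.065 under the median scalings, 0.048 with GAPDH, 0.032 with NaCNBH3 libraries alone and -0.38 to 0.20 with a replicate left out. H2BC8 in the libraries labelled E389L was -0.015 with GAPDH and -0.24 to 0.36 with a replicate left out, and H2AC18/H2AC19 in G641E was 0.025 scaled to the median of all genes. H2AC7 in H537A was -0.72 to 0.14 with a replicate left out. H3C13 in NAT10(-) was 0.011 scaled to other genes and -0.45 to 0.34 with a replicate left out.

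For C>T, FKBP replicate 1 alone and replicate 2 alone each called 1 histone cytosine and other genotypes 0. The pooled difference was 0.0386 to 0.0700 points by replicate, and the difference between genotypes with and without working NAT10 was -0.000651 at windows of 1 member and -0.00173 to 0.00531 by replicate. The cause of these shifts was not tested.

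Entries with under 30 reads in any library could not be compared, and 14 genes had no listed position. With 2 replicates per genotype, the standard error of an entry was 0.29 to 0.46 on the log2 scale.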
